A study of Mus musculus with 2 samples.

Results

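The genes described here are 6 of the 18685 genes measured in a mouse hepatoma: granzymes A, B and K (Gzma, Gzmb and Gzmk), perforin (Prf1), Nkg7 and Fas ligand (Fasl). They were chosen by name as genes of lymphocyte killing, not by a measured value. Transcripts of single cells were counted with the 10x Genomics 3′ v2 chemistry in percutaneous grafts of Hep1-6, a mouse liver cancer line. The hosts were wild type male C57BL/6 mice, 6 to 8 weeks old, on a normal diet, and they received a SIGLEC15 antibody or IgG by intraperitoneal injection. The design gives 3 mice per group with 1 library for each group, and no cell can be tied to a mouse. CD45 bead-enriched cells were loaded 1:1 with unsorted cells, so the share of immune cells was set by the mixing.

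The antibody library held 5482 cells in 30 clusters named by the authors, with 74168827 UMIs (unique molecular identifiers, each standing for 1 captured transcript) and a median of 13714.5 UMIs per cell. The IgG library held 5765 cells, but 0 of the 6 genes were complete in the copy used here, so the antibody and IgG groups were not compared for them. Of the antibody barcodes, 11 were also found in the IgG library, which is 0.201%. All levels below are from the antibody library, as UMIs of a gene scaled to 1000000 UMIs of the cluster (CPM). Intervals are 95% intervals for counting error of UMIs summed over cells. They do not cover differences between cells or between mice, so a few heavy cells can move a value past its interval. With 1 library no p-value was computed. The chemistry reads transcript ends, so each gene is compared between clusters and not with other genes.

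Cytotoxic T cells and natural killer (NK) cells store perforin and granzymes in secretory granules. Perforin forms pores in the membrane of the target cell, and granzymes, which are serine proteases, enter through them and cleave proteins that start cell death. Nkg7 is a granule membrane protein needed for efficient killing in mice, and Fas ligand is a surface protein that triggers death through the receptor Fas.

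The 250 bases upstream of the annotated starts of the granzyme and perforin genes are shown because these genes were read in the same lymphoid clusters, yet Gzma and Gzmk, which are neighbouring protein-coding genes on chromosome 13, had their highest levels in different clusters. The sequences are from RefSeq on mouse build GRCm38.p6, 5′ to 3′ on the gene's own strand. The starts were checked against transcripts of a second annotation, GENCODE. The bases after the start were found near the beginning of 1 of 2 transcripts for Gzma. They were found in 0 of 3 for Gzmk, 0 of 1 for Gzmb and 0 of 2 for Prf1, so the starts of these are uncertain. Gzma lies at chr13:113100982-113101231 on the minus strand, and Gzmk at chr13:113180966-113181215 on the minus strand. Gzmb lies at chr14:56262335-56262584 on the minus strand, next to Gzmc. Prf1 lies at chr10:61297586-61297835 on the plus strand. Capitals mark 4 short motifs, searched on both strands: the Runx core TGTGGT, the T-box site AGGTGT, the AP-1 sites TGACTCA or TGAGTCA, and the Ets core GGAAGT.
Gzma: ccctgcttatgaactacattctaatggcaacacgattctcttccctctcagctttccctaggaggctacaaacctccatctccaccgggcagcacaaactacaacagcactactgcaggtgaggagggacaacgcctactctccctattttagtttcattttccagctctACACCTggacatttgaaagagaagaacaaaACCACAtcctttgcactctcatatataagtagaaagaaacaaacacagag
Gzmk: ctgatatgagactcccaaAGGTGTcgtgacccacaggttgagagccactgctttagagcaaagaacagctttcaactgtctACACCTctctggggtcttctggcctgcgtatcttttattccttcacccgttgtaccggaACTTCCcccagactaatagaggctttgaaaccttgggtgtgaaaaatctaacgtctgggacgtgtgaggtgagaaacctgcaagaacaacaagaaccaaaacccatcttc
Gzmb: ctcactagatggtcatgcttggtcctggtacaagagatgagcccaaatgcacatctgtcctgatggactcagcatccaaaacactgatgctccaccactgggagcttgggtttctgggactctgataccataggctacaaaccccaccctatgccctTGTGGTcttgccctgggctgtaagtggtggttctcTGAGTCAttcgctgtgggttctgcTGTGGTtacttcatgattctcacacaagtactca
Prf1: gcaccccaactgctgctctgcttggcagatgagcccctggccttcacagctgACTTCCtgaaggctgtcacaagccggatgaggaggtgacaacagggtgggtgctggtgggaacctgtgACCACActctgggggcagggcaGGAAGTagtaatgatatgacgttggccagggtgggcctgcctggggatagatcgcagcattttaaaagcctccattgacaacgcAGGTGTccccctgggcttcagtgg
The Runx core matched 2 times in Gzmb, 1 time in Prf1 and 1 time in Gzma, and it was in 14.0% of 32851 mouse promoters of this length. The T-box site matched 1 time in Gzma, 2 times in Gzmk and 1 time in Prf1, against 11.8% of promoters. Gzmb alone of the 6 genes had an AP-1 match, which 4.46% of promoters had. The Ets core matched 2 times in Prf1 and 1 time in Gzmk, against 19.7% of promoters. The windows of Nkg7 and Fasl, not printed, held a Runx core and a T-box site in Nkg7 and an Ets core in Fasl. A match is a string of letters and is not evidence that a factor binds there.

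Lymphoid clusters held most of the UMIs of all 6 genes. The 4 lymphoid clusters were CD3_T with 138 cells, CD4_T with 47, CD8_T_1 with 208 and CD8_T_2 with 127. They held 87.7% of the 1312 Gzma UMIs, 76.2% of the 806 Gzmb UMIs and 76.6% of the 175 Gzmk UMIs. They also held 79.3% of the 764 Prf1 UMIs, 75.6% of the 4378 Nkg7 UMIs and 73.1% of the 193 Fasl UMIs. CD3_T was the largest source of Gzma with 60.4% of its UMIs, while CD8_T_1 was the largest source of the other 5 genes, with 41.5% to 50.9%. Cells of these clusters differed in depth: the median was 1367 UMIs in CD3_T, 2808 in CD4_T, 5474.5 in CD8_T_1 and 2591 in CD8_T_2. In the tumour clusters, which should lack these genes, between 0.0622% of cells (Gzmk) and 1.53% (Nkg7) held a UMI, at a median depth of 20428 UMIs.

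The deposited names were checked against markers. Summed over Cd3d, Cd3e, Cd3g, Trac and Trbc2, T cell markers stood at 2516 CPM in CD3_T, 4931 CPM in CD4_T, 3663 CPM in CD8_T_1 and 5334 CPM in CD8_T_2. Cd8a and Cd8b1 summed to 670 CPM in CD8_T_1 and 1184 CPM in CD8_T_2, and 29 of 47 CD4_T cells held a Cd4 UMI. In CD3_T, 97 of 138 cells held a UMI of Cd3d, Cd3e or Cd3g, and 6 NK cell markers (Ncr1, Klrb1c, Klre1, Klra8, Klri2 and Eomes) summed to 820 CPM. The same 6 markers summed to 98.9 CPM in CD4_T, 175 CPM in CD8_T_1 and 237 CPM in CD8_T_2. The data go against the name CD3_T for some of its cells, since 24 of them held Ncr1 or Klrb1c without a UMI of the 3 Cd3 genes, and the cluster is called by its deposited name only.

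**Figure D1:**
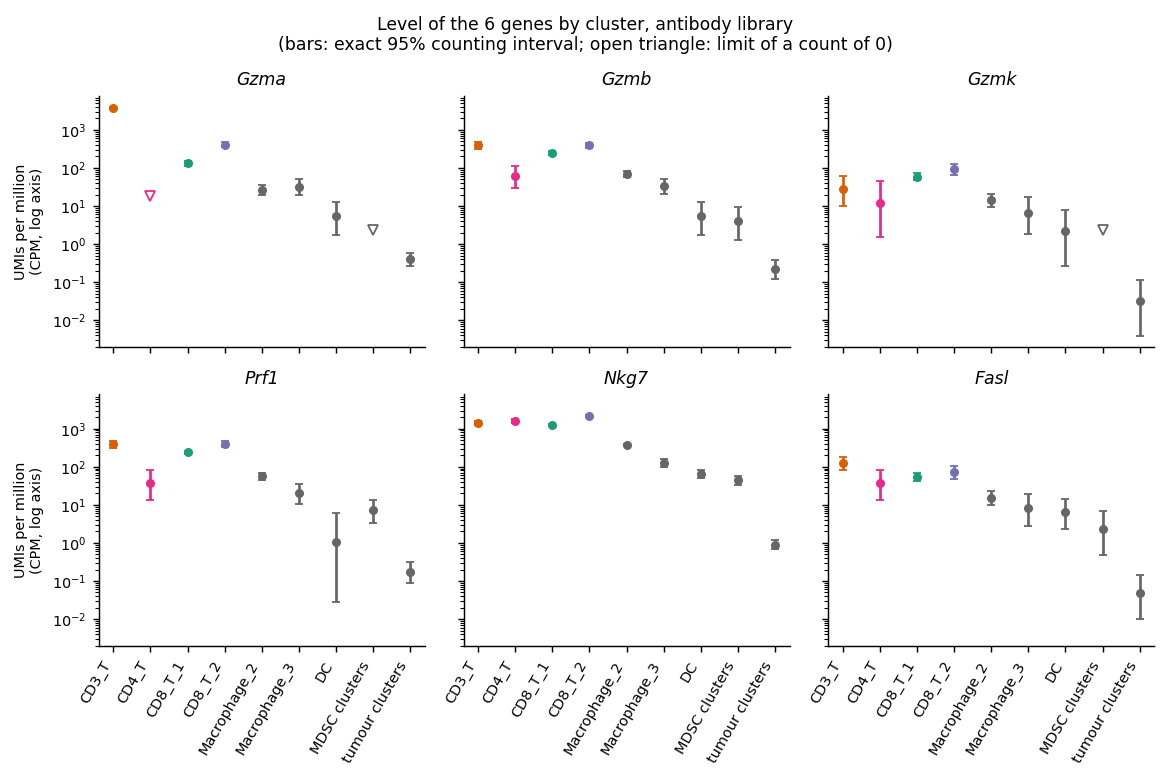
Level of each of the 6 genes in CPM (log axis) in 4 lymphoid clusters, 3 myeloid clusters, the MDSC clusters (myeloid-derived suppressor cells) and the tumour clusters of the antibody library. Points are the cluster totals, bars the exact 95% counting interval, and open triangles the limit of a count of 0. Gzma stands at 3716 CPM in CD3_T, above every other cluster, while Nkg7 lies between 1259 and 2189 CPM in all 4 lymphoid clusters and every gene is below 1 CPM in the tumour clusters.

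Gzma, a granzyme with trypsin-like specificity, was the most unevenly spread of the 6 genes. It was at 3716 CPM in CD3_T (interval 3462 to 3984, 793 UMIs in 39 cells), 132 CPM in CD8_T_1 (115 to 152, 198 UMIs in 24 cells) and 408 CPM in CD8_T_2 (347 to 477, 160 UMIs in 15 cells). In CD4_T 0 of 47 cells held a Gzma UMI, and a count of 0 allows up to 18.5 CPM there. The level in CD3_T was 19.6-fold (17.3 to 22.2) that of both CD8 clusters together, which stood at 190 CPM. Between the CD8 clusters, CD8_T_1 was at 0.325 of CD8_T_2.

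A few cells carried most of the Gzma signal of the CD8 clusters. In CD8_T_1, 1 cell held 107 of the 198 UMIs, and the 5 heaviest cells held 81.3%. That cell and another with 20 UMIs held Ncr1 or Klrb1c and 0 UMIs of the Cd3 genes, Cd8a or Cd8b1. The 200 CD8_T_1 cells with a Cd3 UMI stood at 50.3 CPM. In CD8_T_2 the 5 heaviest cells held 68.8% of the Gzma UMIs, so most cells of either cluster had none.

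Gzmb, which cleaves after aspartate and can activate caspases, was spread over more cells. Its level was 398 CPM in CD3_T (318 to 492), 61.8 CPM in CD4_T (29.6 to 114, from 10 UMIs in 5 cells), 245 CPM in CD8_T_1 (220 to 271) and 390 CPM in CD8_T_2 (331 to 457). CD3_T and CD8_T_2 did not differ beyond counting error, with a ratio of 1.02 (0.773 to 1.34), and CD8_T_1 was at 0.627 of CD8_T_2. A Gzmb UMI was found in 26.8% of CD3_T cells, 47.1% of CD8_T_1 cells and 46.5% of CD8_T_2 cells. When each cell was thinned to 1000 UMIs, the expected shares were 20.2% in CD3_T, 19.4% in CD8_T_1 and 26.5% in CD8_T_2, so the higher raw share of CD8_T_1 went with its greater depth.

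Gzmk, a granzyme read mainly in memory and chronically stimulated CD8 T cells, had its highest level in CD8_T_2. It stood at 28.1 CPM in CD3_T (10.3 to 61.2, 6 UMIs in 5 cells), 59.5 CPM in CD8_T_1 (47.8 to 73.3) and 94.4 CPM in CD8_T_2 (66.5 to 130). CD4_T held 2 Gzmk UMIs, both in 1 cell. CD3_T was at 0.421 (0.152 to 0.942) of both CD8 clusters together, the opposite direction to its chromosomal neighbour Gzma. The thinned share was 2.67% in CD3_T, 6.90% in CD8_T_1 and 10.6% in CD8_T_2.

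Prf1, the pore-forming protein, had an order of clusters close to that of Gzmb. It was at 389 CPM in CD3_T (310 to 482), 37.1 CPM in CD4_T (6 UMIs in 3 cells), 241 CPM in CD8_T_1 (217 to 267) and 401 CPM in CD8_T_2 (340 to 468). CD8_T_2 and CD3_T had a ratio of 1.03 (0.784 to 1.36), which is within counting error, and CD3_T was 1.61-fold (1.26 to 2.05) above CD8_T_1. A Prf1 UMI was found in 27.5% of CD3_T cells, 58.7% of CD8_T_1 cells and 48.0% of CD8_T_2 cells. The thinned shares were 22.4% in CD3_T, 18.7% in CD8_T_1 and 25.4% in CD8_T_2.

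Nkg7 was the gene of the 6 held by most cells. Its level was 1424 CPM in CD3_T (1269 to 1594), 1631 CPM in CD4_T (1440 to 1840), 1259 CPM in CD8_T_1 (1203 to 1317) and 2189 CPM in CD8_T_2 (2045 to 2340). It was in 68.8% of CD3_T cells, 85.1% of CD4_T cells, 91.8% of CD8_T_1 cells and 96.9% of CD8_T_2 cells. CD8_T_2 was 1.34-fold (1.17 to 1.55) above CD4_T, the next cluster. The ratios of CD4_T to CD3_T, 1.15 (0.967 to 1.35), and of CD3_T to CD8_T_1, 1.13 (0.999 to 1.28), were within counting error.

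Fasl was sparse, with 193 UMIs in 160 cells of the library. It was at 127 CPM in CD3_T (83.4 to 184, 27 UMIs in 25 cells), 37.1 CPM in CD4_T (6 UMIs in 5 cells), 53.5 CPM in CD8_T_1 (42.4 to 66.6) and 71.4 CPM in CD8_T_2 (47.5 to 103). CD3_T was 2.21-fold (1.39 to 3.39) above both CD8 clusters together, which stood at 57.2 CPM. Its next cluster was CD8_T_2, and the interval of that ratio, 1.77, reached down to 1.00.

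The 6 genes were read against all genes with at least 20 UMIs over both sides of each pair of clusters. In CD3_T over both CD8 clusters, 2 of the 6 were at least 2-fold higher, Gzma and Fasl, where 9.97% of 7511 genes were. In the same pair 1 of the 6, Gzmk, was at least 2-fold lower, where 21.2% of genes were. The Fasl and Gzmk calls ended when CD3_T cells with a UMI of the NK receptors Ncr1 or Klrb1c were left out. In CD8_T_1 over CD8_T_2, 0 of the 6 were at least 2-fold higher, against 11.6% of 7156 genes, and 1 was lower, Gzma, against 4.32%. All 6 ratios of that pair were below 1, between 0.325 and 0.749, as were those of 42.7% of all genes tested, and the interval of Fasl held 1. In CD4_T over both CD8 clusters, 0 of the 6 were at least 2-fold higher, against 8.75% of 7387 genes, and 4 were lower, Gzma, Gzmb, Gzmk and Prf1, against 21.3%.

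In CD4_T the granzymes and Prf1 were lower than in the CD8 clusters, while Nkg7 and Fasl were within counting error of them. Gzma had 0 UMIs in CD4_T, and the interval of its ratio to the CD8 clusters reached up to 0.121. Set at a floor of 3 counts over the cluster, it was 10.2-fold lower. That CD8 level of 190 CPM included cells with an NK receptor UMI, and without them it was 118 CPM. Gzmb stood at 0.225 (0.107 to 0.416) of the CD8 clusters, Gzmk at 0.185 (0.0222 to 0.682) and Prf1 at 0.135 (0.0494 to 0.296). Nkg7 was at 1.12 (0.986 to 1.27) of the CD8 clusters and Fasl, from 6 UMIs, at 0.648 (0.233 to 1.46). Within CD4_T, all 10 Gzmb UMIs were in the 18 cells without a Cd4 UMI, at 204 CPM, and 0 were in the 29 cells with one. Nkg7 was 1.45-fold (1.08 to 1.96) higher in the Cd4 cells than in the other 18.

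In CD3_T, cells with NK receptor transcripts carried most of the Gzma. Ncr1 and Klrb1c encode the activating receptors NKp46 and NK1.1, and 30 of 138 CD3_T cells held a UMI of either, with a median depth of 1589 UMIs against 1327 in the other 108. Gzma was in 29 of those 30 cells and in 10 of the 108, at 12144 CPM with and 706 CPM without an NK receptor UMI. The ratio was 17.2 (14.1 to 21.2), and the 30 cells held 86.0% of the Gzma UMIs of the cluster. Per cell, the 30 had a median of 134.7 and a highest value of 606.8 Gzma UMIs per 10000.

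Gzmb, Prf1 and Nkg7 differed the same way between those cells, by smaller factors. Gzmb was at 1140 CPM in CD3_T cells with an NK receptor UMI and 134 CPM in those without, a ratio of 8.53 (5.14 to 14.7). Prf1 was at 1157 CPM with and 114 CPM without, a ratio of 10.1 (5.93 to 18.1). Nkg7 was at 2511 CPM with and 1036 CPM without, a ratio of 2.42 (1.92 to 3.05). Fasl was at 196 CPM with and 102 CPM without, and its ratio of 1.93 (0.808 to 4.42) was within counting error. Gzmk had 0 UMIs in the 30 cells, which allows up to 53.4 CPM, and was at 38.2 CPM in the 108, so a difference was not detectable at this depth.

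**Figure D2:**
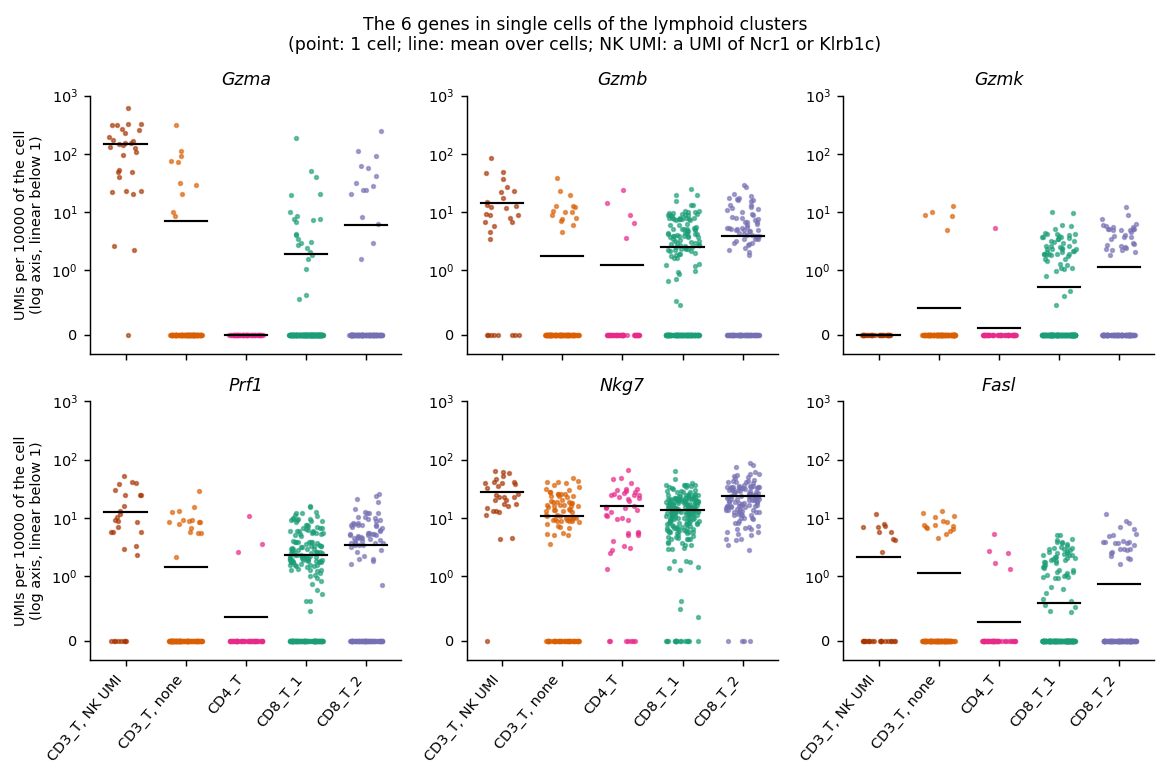
The 6 genes in single cells of the lymphoid clusters, as UMIs per 10000 UMIs of the cell (log axis, linear below 1), with CD3_T shown apart for the 30 cells with and the 108 cells without a UMI of Ncr1 or Klrb1c (NK UMI). Points are cells and lines are means over cells. Gzma is in 29 of the 30 NK UMI cells and Gzmk in 0 of them.

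Removing the NK receptor cells changed how CD3_T compared with the CD8 clusters. Without the 30 cells, Gzma in CD3_T was 3.72-fold (2.98 to 4.61) that of the CD8 clusters, against 19.6-fold (17.3 to 22.2) with them. When the 5 NK receptor cells of the CD8 clusters were left out too, it was 5.97-fold (4.71 to 7.54). Both values lean on the heaviest of the 108 CD3_T cells left, which held 60 of their 111 Gzma UMIs. That cell had no UMI of the Cd3 genes, Cd8a, Cd8b1, Ncr1 or Klrb1c, but 4 UMIs of the NK cell markers. Gzmb changed direction, to 0.485 without them against 1.45 (1.14 to 1.82) with them. Prf1 likewise changed direction, to 0.418 without them against 1.42 (1.11 to 1.79) with them. Both passed 2-fold lower without the 30 cells, while Fasl, at 1.78 (0.981 to 3.02), and Gzmk, at 0.571 (0.206 to 1.28), no longer passed 2-fold. The 91 CD3_T cells with a Cd3 UMI and no NK receptor UMI stood at 320 CPM for Gzma, 102 CPM for Gzmb and 124 CPM for Prf1. Over all 4 lymphoid clusters, 35 cells held an NK receptor UMI, and they held 71.5% of the lymphoid Gzma and 0 of the 134 lymphoid Gzmk UMIs.

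Prf1 was higher in CD8_T_1 cells that held a checkpoint receptor transcript, and in CD8_T_2 the same difference rested on few cells. Pdcd1 encodes PD-1 and Havcr2 encodes TIM-3, both read in chronically stimulated T cells. In CD8_T_1, Prf1 was at 375 CPM in the 62 cells with and 166 CPM in the 146 cells without a Havcr2 UMI, a ratio of 2.25 (1.82 to 2.79). In CD8_T_2 it was at 562 CPM in 37 cells with and 330 CPM in 90 cells without, a ratio of 1.70 (1.22 to 2.36). By Pdcd1 the Prf1 ratio was 1.66 (1.24 to 2.27) in CD8_T_1 and 1.51 (1.07 to 2.16) in CD8_T_2. A deeper cell has a greater chance of holding a marker UMI. In CD8_T_1 the median depth was 7777 UMIs with and 5179.5 without Havcr2, and in CD8_T_2 it was 2414 with and 2660.5 without. Without the 5 heaviest cells of each side, the Havcr2 ratio of Prf1 was 2.07 (1.62 to 2.65) in CD8_T_1 and 1.09 (0.620 to 1.85) in CD8_T_2. The Pdcd1 ratio without such cells was 2.06 (1.42 to 3.08) in CD8_T_1 and 1.43 (0.874 to 2.39) in CD8_T_2, so in CD8_T_2 neither difference stood beyond counting error without them. Leaving out 5 cells takes a larger share of the smaller side, so the check was uneven by Havcr2 in CD8_T_2, with 37 cells against 90. By Pdcd1 the sides of CD8_T_2 were 63 and 64 cells.

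Gzmb was also higher in CD8_T_1 cells with a checkpoint transcript, by smaller ratios than Prf1 when all cells were kept. It was at 295 CPM in CD8_T_1 cells with and 217 CPM in those without a Havcr2 UMI, a ratio of 1.35. By Pdcd1 it was at 263 CPM with and 183 CPM without, a ratio of 1.44. Without the 5 heaviest cells of each side, the Gzmb ratio in CD8_T_1 was 1.41 (1.09 to 1.83) by Havcr2 and 2.28 (1.53 to 3.51) by Pdcd1. By Pdcd1 the cells left out were 5 of 146 with and 5 of 62 without, which favours a higher ratio. In CD8_T_2 the Gzmb ratio by Havcr2 was 1.52 (1.08 to 2.12) and changed direction, to 0.889, without the 5 heaviest cells of each side. Those were 5 of 37 cells with and 5 of 90 without, which favours a lower ratio. The CD8_T_2 ratio by Pdcd1 was 0.954 (0.685 to 1.34), within counting error.

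Gzma was lower in CD8 cells with a checkpoint transcript, and in both clusters that difference rested on few cells. In CD8_T_1 it was at 45.0 CPM in 146 cells with and 430 CPM in 62 cells without a Pdcd1 UMI, a ratio of 0.105. Among CD8_T_1 cells with a Cd3 UMI and no NK receptor UMI, it was at 45.0 CPM with and 73.8 CPM without Pdcd1, a ratio of 0.610 (0.355 to 1.09), which is within counting error. Without the 5 heaviest cells of each side the direction turned, to 4.78 (0.750 to 200), from 17 UMIs with and 1 without. Only 6 of the 62 cells without Pdcd1 held Gzma, so leaving out 5 removed nearly all Gzma of that side. The share of cells with a Gzma UMI was near equal, 18 of 146 with and 6 of 62 without. In CD8_T_2 Gzma was at 126 CPM in 63 cells with and 808 CPM in 64 cells without Pdcd1, a ratio of 0.156 (0.101 to 0.235), from 5 holding cells with and 10 without. With the same restriction to cells with Cd3 and no NK receptor UMI, the CD8_T_2 ratio was 0.0825, from 15 UMIs with and 131 without. Only 5 CD8_T_2 cells with Pdcd1 held Gzma, so leaving out the 5 heaviest cells could only give 0 there and tests nothing. By Havcr2 the Gzma ratio was 0.249 in CD8_T_1 and 0.237 in CD8_T_2. Under the restriction the Havcr2 ratio of CD8_T_1 was 0.843 (0.493 to 1.41), within counting error. Without the 5 heaviest cells of each side it was 0.166 (0.0190 to 0.677), from 2 UMIs with. The restricted CD8_T_2 ratio by Havcr2 was 0.0165, from 1 UMI with.

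**Figure D3:**
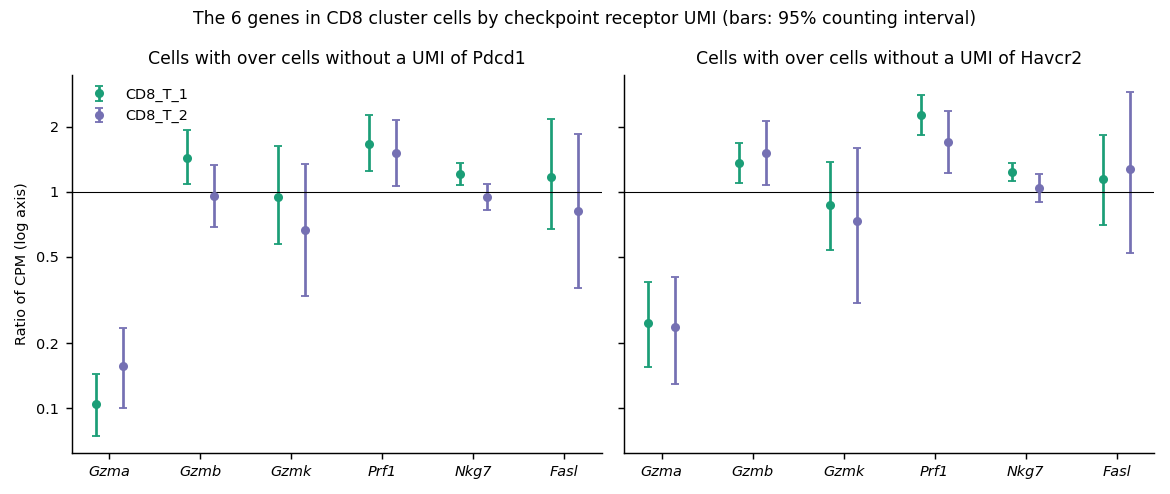
Ratio of CPM (log axis) in CD8_T_1 and CD8_T_2 cells with over cells without a UMI of Pdcd1 (left) or Havcr2 (right), for each of the 6 genes. Bars are 95% counting intervals and the line marks a ratio of 1. Prf1 is above 1 in all 4 ratios and Gzma below 1 in all 4. In CD8_T_1 cells with Cd3 and no NK receptor UMI, not plotted apart, Gzma is 0.610 by Pdcd1 and 0.843 by Havcr2. Without the 5 heaviest cells of each side, Gzma in CD8_T_1 turns to 4.78 by Pdcd1 and is 0.166 by Havcr2. That step takes a larger share of the smaller side. The Gzma ratios of CD8_T_2 rest on few cells.

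Cell cycle genes and Cd4 also split the CD8 clusters. In CD8_T_1, 203 of 208 cells held a UMI of the cycle genes Mki67 or Top2a, which left 5 cells to set them against. In CD8_T_2, Gzmb was at 473 CPM in 48 cells with and 320 CPM in 79 cells without a cycle gene UMI, a ratio of 1.48 (1.06 to 2.06). Nkg7 went the other way, at 1915 CPM with and 2421 CPM without, a ratio of 0.791 (0.688 to 0.908). Median depth was 3371 UMIs with and 2229 UMIs without a cycle gene UMI. This split was not repeated without the heaviest cells. In CD8_T_1, the 19 cells with a Cd4 UMI stood at 28.2 CPM for Gzmb and 28.2 CPM for Prf1, against 268 CPM for Gzmb and 263 CPM for Prf1 in the other cells. In the 12 lymphoid cells with a UMI of Foxp3, the regulatory T cell factor, Gzmb was at 525 CPM against 265 CPM in the others. Of those 31 UMIs, 28 were in 4 CD8_T_2 cells, 16 of them in 1 cell, and 6 of the 12 cells held none.

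Most CD8 cluster cells held several of the 6 genes. The commonest number held was 3 genes in both CD8_T_1, with 54 of 208 cells, and CD8_T_2, with 42 of 127 cells. In CD3_T it was 1 gene, in 43 of 138 cells, and 30 CD3_T cells held none. In CD4_T, 34 of 47 cells held 1 gene and 0 held more than 2. All 6 genes were found together in 1 CD8_T_1 cell and 1 CD8_T_2 cell. These numbers were not thinned, and median depth was 1367 UMIs in CD3_T against 5474.5 in CD8_T_1. Within CD8_T_1, cells with 0 genes had a median depth of 2120 UMIs and those with 3 genes 7177.5.

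Pairs of genes were read after thinning, because a deep cell holds more genes of any kind. In CD3_T, 56.9% of cells with Gzma also held Gzmb, against 6.39% of cells without Gzma. Likewise 52.0% of CD3_T cells with Gzma held Prf1, against 11.3% of those without. In the CD8 clusters together, 50.6% of cells with Gzma held Gzmb against 19.9% without. Prf1 went opposite ways in the CD8 clusters, in 28.2% of CD8_T_1 cells with and 18.1% without Gzma, and in 15.1% of CD8_T_2 cells with and 26.5% without. The shares with Gzma rest on 3.20 of 11.4 expected cells in CD8_T_1 and 1.89 of 12.6 in CD8_T_2. Over both CD8 clusters the Prf1 shares were 21.3% with and 21.2% without Gzma. Gzmb and Prf1 met more often over both CD8 clusters, with Prf1 in 27.9% of cells with Gzmb and 19.3% of those without. That difference lay mainly in CD8_T_1, with Prf1 in 29.17% of cells with Gzmb and 16.16% of those without. In CD8_T_2 the Prf1 shares were close, 26.46% with and 24.97% without Gzmb. Gzmk was in 20.7% of CD8 cells with Gzma and 7.33% of those without, while the NK receptor cells held Gzma and no Gzmk UMI. The CD8 shares with Gzma rest on 23.9 expected cells of 333.

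**Figure D4:**
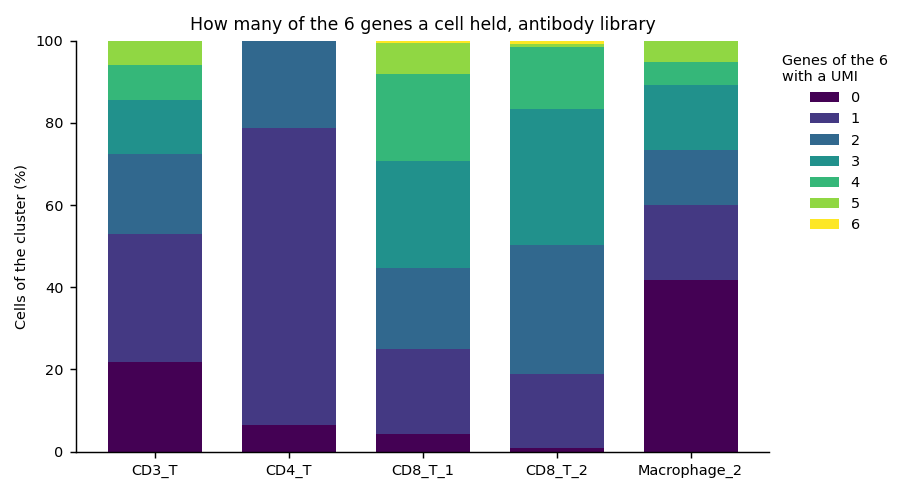
Share of cells (%) in the 4 lymphoid clusters and Macrophage_2 by how many of the 6 genes had at least 1 UMI in the cell, not thinned. In CD4_T 34 of 47 cells held 1 gene, while CD8_T_1 and CD8_T_2 most often held 3.

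Other genes of the killing pathway were counted from 8 lists with 51 genes, of which 49 were in the matrix, and values are given for up to 3 genes of each role, those with most lymphoid UMIs. In CD3_T over both CD8 clusters, 5 of 38 tested genes were at least 2-fold higher, against 9.97% of all genes, and 6 were lower, against 21.2%, with a median log2 ratio of 0.28 against -0.07 over all genes. The 5 higher were Ctsw, a cathepsin of cytotoxic cells (2.06), the transcription factors Tbx21 (2.49), Zeb2 (2.15) and Tcf7 (25.5, 11.6 to 61.9), and the interleukin 12 receptor subunit Il12rb1 (3.31). The 6 lower included Il2ra (0.224, 0.0266 to 0.836). Another 4 of them, Gzmc, the fusion protein Stx11, the death receptor Fas and its adaptor Fadd, had 1 or 2 UMIs each in CD3_T and intervals that held 1. In CD8_T_1 over CD8_T_2, 1 of 35 was higher, Fadd (2.36, with 2 UMIs in CD8_T_2), against 11.6% of all genes. In that pair 3 were lower, Ctsw (0.457), Fas (0.379) and Tnfrsf1a (0.472), against 4.32% of all genes, with a median of -0.33 against 0.07 over all genes. The interval of Fas, from 13 UMIs in CD8_T_1 and 9 in CD8_T_2, held 1. In CD4_T over both CD8 clusters, 7 of 37 were higher, against 8.75% of all genes, and 1 was lower, Tnfrsf1a (0.278, from 1 UMI in CD4_T), against 21.3%. The 7 were Srgn (2.55), Serpinb6b (2.46), Tnf (3.24, 0.940 to 9.05, from 5 UMIs), Lta (13.8), Fas (3.18), Il2ra (2.51) and Il2rg (2.30), and the median was 0.27 against -0.02 over all genes.

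Among other granzymes, Gzmc was the only one with enough UMIs to be tested, since Gzmm had 5 and Gzmf 4 in all lymphoid clusters. It stood at 4.69 CPM in CD3_T, 18.5 CPM in CD4_T, 25.4 CPM in CD8_T_1 and 23.0 CPM in CD8_T_2. Gzmc to Gzmg are close copies of one another, so how reads were divided among them is uncertain. For packaging, Srgn, the proteoglycan core on which granule proteins are stored, was at 684 CPM in CD3_T, 1186 CPM in CD4_T, 427 CPM in CD8_T_1 and 610 CPM in CD8_T_2. Ctsw was at 417 CPM in CD3_T, 241 CPM in CD4_T, 162 CPM in CD8_T_1 and 355 CPM in CD8_T_2. Calr, a calcium-binding chaperone also found in granules, was at 323 CPM in CD3_T, 500 CPM in CD4_T, 606 CPM in CD8_T_1 and 434 CPM in CD8_T_2. Srgn and Calr were not restricted to lymphocytes: Srgn stood at 5725 CPM in the MDSC clusters and Calr at 697 CPM in the tumour clusters.

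For granule release, Rab27a, a small GTPase for granule docking, was at 42.2 CPM in CD3_T, 49.4 CPM in CD4_T, 51.5 CPM in CD8_T_1 and 66.3 CPM in CD8_T_2. Lyst, a regulator of lysosome size, was at 93.7 CPM in CD3_T, 61.8 CPM in CD4_T, 69.6 CPM in CD8_T_1 and 115 CPM in CD8_T_2. Ap3b1, a subunit of an adaptor that sorts granule proteins, was at 51.5 CPM in CD3_T, 37.1 CPM in CD4_T, 54.2 CPM in CD8_T_1 and 71.4 CPM in CD8_T_2. No release gene but Stx11 passed 2-fold between these clusters.

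Inhibitors and death receptors bear on the target side of the pathway. Serpinb9, an inhibitor of granzyme B, was at 103 CPM in CD3_T, 148 CPM in CD4_T, 152 CPM in CD8_T_1 and 156 CPM in CD8_T_2. In the tumour clusters Serpinb9 was at 4.33 CPM, with a UMI in 250 of 3213 cells. Serpinb6b, a related serpin, was at 164 CPM in CD3_T, 371 CPM in CD4_T, 141 CPM in CD8_T_1, 186 CPM in CD8_T_2 and 1.25 CPM in the tumour clusters. Serpinb9b, another serpin of this family, had 4 UMIs in CD3_T, 6 in CD8_T_1 and 0 in CD4_T and CD8_T_2. Fas, the receptor of Fas ligand, was at 8.06 CPM in the tumour clusters, with a UMI in 12.4% of their cells, and at 73.0 CPM in the MDSC clusters. Casp8, the initiator caspase of the death receptors, was between 43.3 and 68.9 CPM in the lymphoid clusters and at 34.9 CPM in the tumour clusters. Cflar, which restrains Casp8, was between 58.7 and 103 CPM in the lymphoid clusters and at 45.3 CPM in the tumour clusters.

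Among death ligands, Tnfsf10, known as TRAIL, was at 42.2 CPM in CD3_T, 74.1 CPM in CD4_T, 32.1 CPM in CD8_T_1 and 58.7 CPM in CD8_T_2. Lta, or lymphotoxin alpha, was at 9.37 CPM in CD3_T, 80.3 CPM in CD4_T, 6.02 CPM in CD8_T_1 and 5.10 CPM in CD8_T_2, from 13 UMIs in CD4_T. Tnf was at 14.1 CPM in CD3_T, 30.9 CPM in CD4_T, 10.0 CPM in CD8_T_1 and 7.65 CPM in CD8_T_2. Both had their highest lymphoid level in CD4_T, where Gzmb and Prf1 had their lowest.

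Of the transcription factors, Runx3, which drives killing genes in CD8 T cells, was at 300 CPM in CD3_T, 142 CPM in CD4_T, 196 CPM in CD8_T_1 and 209 CPM in CD8_T_2. Id2 was at 553 CPM in CD3_T, 704 CPM in CD4_T, 320 CPM in CD8_T_1 and 559 CPM in CD8_T_2. Zeb2, a repressor linked to terminal effector cells, was at 117 CPM in CD3_T, 68.0 CPM in CD4_T, 58.2 CPM in CD8_T_1 and 40.8 CPM in CD8_T_2. Of the cytokine receptors, Il2rb, which receives interleukin 2 and interleukin 15, was at 403 CPM in CD3_T, 229 CPM in CD4_T, 264 CPM in CD8_T_1 and 360 CPM in CD8_T_2. Its partner Il2rg was at 183 CPM in CD3_T, 315 CPM in CD4_T, 123 CPM in CD8_T_1 and 191 CPM in CD8_T_2. Il18r1, a receptor chain for interleukin 18, was at 211 CPM in CD3_T, 222 CPM in CD4_T, 114 CPM in CD8_T_1 and 110 CPM in CD8_T_2.

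The genes most like each of the 6 were found by Pearson's r of log2(CPM + 10) over the 26 clusters with at least 50 cells, among 11802 genes with at least 100 UMIs. Clusters share 1 library and differ in depth, so r is a description. The genes depend on the measure: 17 of the 30 named stayed among the 5 most alike with log2(CPM + 1), and 5 with Spearman's rank correlation. For Gzma they were Lax1 (0.966), S1pr4 (0.962), Tbx21 (0.959), Fasl (0.956) and Cd96 (0.954). For Gzmb they were Lck (0.992), Gata3 (0.991), Klrc2 (0.990), Ctsw (0.987) and Gm8369 (0.985). For Gzmk they were Xlr4b, Tcrg-C2, Sh2d1a, Gpr174 and Themis, between 0.990 and 0.973. For Prf1 they included Prkcq, Cd247, Gm19585 and Cd96, between 0.987 and 0.983. For Nkg7 they were the T cell genes Trbc2, Cd3e, Ptprcap, Trbc1 and Ms4a4b, between 0.994 and 0.989. For Fasl they included Prkcq, Cd96, Klre1 and Prf1, between 0.989 and 0.976.

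Outside the lymphoid clusters, 314 of 4962 cells held a UMI of at least 1 of the 6 genes, and Macrophage_2 held the most. In Macrophage_2, 92 of 158 cells held one, and the cluster had 14.9% of the library's Gzmb UMIs, 14.3% of Gzmk, 13.0% of Prf1, 14.8% of Nkg7 and 14.0% of Fasl, but 3.58% of Gzma. Nkg7 was at 371 CPM there, Gzmb at 68.6 CPM and Prf1 at 56.6 CPM. In the tumour clusters the highest of the 6 levels was 0.90 CPM, for Nkg7, and thinned shares were at most 0.12% of cells.

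Most Macrophage_2 cells that held killing genes also held T cell marker transcripts. Of the 92 holders, 88 (95.7%) held a UMI of the 5 T cell markers, against 5 of the 66 other cells (7.58%). The 93 cells with a T cell marker held 961 of the 967 UMIs of the 6 genes, at 869 CPM, and the 65 without held 6 UMIs, at 9.31 CPM. Macrophage markers (C1qa, C1qb, C1qc, Csf1r and Adgre1) summed to 4735 CPM in the cells with and 7123 CPM in the cells without a T cell marker, and to 95.7 CPM in CD8_T_1. The 6 genes came to 0.461 UMIs per T cell marker UMI in Macrophage_2, against 2.42 in CD3_T, 0.361 in CD4_T, 0.543 in CD8_T_1 and 0.666 in CD8_T_2. Gzma was 4.86% of the UMIs of the 6 genes in Macrophage_2, against 61.1% in CD3_T and 6.66% in CD8_T_1. Median depth was 11627 UMIs with and 9450 UMIs without a T cell marker. Scrublet, a doublet caller, marked 0 of the 158 cells, but it marked only 3 of 5482 in all, too few for the caller to have worked. Doublets were therefore not removed.

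Other myeloid clusters held fewer such cells. In Macrophage_3, 19 of 21 holders had a T cell marker UMI, in Macrophage_1 9 of 12 did, and in Macrophage_4 4 of 7. In DC, the dendritic cell cluster, 20 of 23 holders did. In the cluster named Unknown, 33 of 38 holders did. The tumour clusters differed, with a T cell marker UMI in 12 of 92 holders (13.0%), against 208 of the 3121 other cells (6.66%). In DC, Gzma hardly differed, at 5.98 CPM in the 25 cells with a T cell marker (1 UMI) and 5.26 CPM in the 183 without (4 UMIs).

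**Figure D5:**
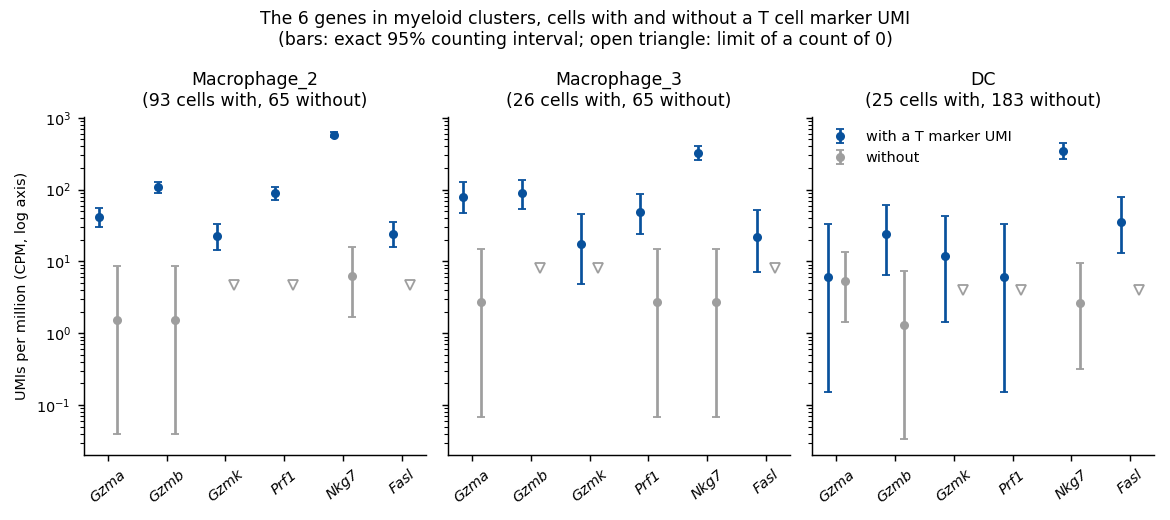
Level of the 6 genes in CPM (log axis) in Macrophage_2, Macrophage_3 and DC, for cells with and without a UMI of the 5 T cell markers. Bars are the exact 95% counting interval and open triangles the limit of a count of 0. In Macrophage_2 the 6 genes sum to 869 CPM in the 93 cells with and 9.31 CPM in the 65 cells without a T cell marker.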

How the data were processed

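Tumour cells of 1 antibody and 1 IgG library were profiled by single-cell RNA sequencing. Per the submitters' processing notes, Cell Ranger 2.1.1 was among the tools. Build, cell filters and clustering method were not given in the sources used here. The authors deposited a cluster name per cell and a matrix of natural log values. On testing, each value was the natural log of 1 plus 10000 times a gene's UMIs over the cell's total. UMIs were recovered as whole numbers within 0.001 for all 15274637 values above 0. The copy of the IgG matrix held 105 complete genes and stopped inside the next. All 5482 antibody cells were used, with 553 to 46558 UMIs.

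UMIs were summed per cluster and scaled to CPM, with exact Poisson intervals for levels, exact conditional intervals for ratios and a floor of 3 counts for a count of 0. Shares were expected values after thinning to 1000 UMIs; shallower cells were left out, which removed 24 of 138 CD3_T cells, 2 of 208 CD8_T_1 cells and none of CD4_T or CD8_T_2. A marker split used at least 1 UMI. The named genes were all 6 genes, the 5 most alike for each, and the 3 of each pathway role with most lymphoid UMIs; other genes past 2-fold were named after their values were seen. A few genes these rules select, and 1 marker split, are not reported here. Scrublet, in scanpy 1.11.5, marked 3 of 5482 cells (0.0547%), too few to be useful, so no doublet was removed. Python 3.11.15, numpy 2.4.6, pandas 2.3.3, scipy 1.17.1 and matplotlib 3.10.9 were used. The code was tested on simulated data.

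The genes and lists were chosen with earlier results of these data known. Alternatives were other thinning depths, a minimum of 2000 UMIs per cell, a mean over cells, a minimum of 50 UMIs, other likeness measures and leaving out the heaviest cells. In ratios and splits the last took 5 cells from each side whatever its size, so it weighs more on the smaller side. The restrictions by NK receptor, macrophage marker or T cell marker UMIs and the left-out heavy cells in ratios were chosen after seeing the data.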

Additional observations from a re-analysis of the deposited data

How the results depend on the processing

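Of 92 ratios between lymphoid clusters under the alternatives, 72 stayed within counting error of the value reported, 15 moved and 5 changed direction. A change of direction was counted only where the interval of the value reported did not hold 1. Other ratios that crossed 1, such as Nkg7 in CD4_T, were counted as stayed or moved. Of 122 levels 37 moved, 23 of them without the 5 heaviest cells, and of 87 thinned shares 45 moved with the thinning depth. Of 12 lists of most alike genes 10 moved. Gzma in CD3_T over the CD8 clusters was 11.0 as a mean over cells, 22.4 in cells with at least 2000 UMIs, 17.2 in cells with fewer than 3 macrophage marker UMIs, 3.72 without CD3_T cells with an NK receptor UMI and 30.8 without the 5 heaviest cells of each side. Without the NK receptor cells, Gzmb was 0.485, Prf1 0.418 and Nkg7 0.714. With such cells left out of both sides, Gzma was 5.97, Gzmb 0.489, Prf1 0.415 and Nkg7 0.712. Prf1 was 0.990 without the 5 heaviest cells and Nkg7 was 0.837 as a mean over cells. In CD8_T_1 over CD8_T_2, Gzma was 0.436 at 2000 UMIs and 0.191 without the heaviest cells, and Prf1 was 0.768 without them. In CD4_T over the CD8 clusters, Gzmb was 0.0792 at 2000 UMIs, and Nkg7 was 0.920 as a mean over cells and 0.867 without the heaviest cells. With at least 50 UMIs the pathway counts were 3 higher and 2 lower in CD3_T, 0 higher and 1 lower in CD8_T_1, and 4 higher and 0 lower in CD4_T. As a mean over cells, 5 were lower in CD8_T_1 and 4 in CD4_T. Of 123 values of marker splits under the alternatives, 98 held, 23 moved and 2 changed direction by the same rule: Gzma in CD8_T_1 by Pdcd1 to 4.78 and Gzmb in CD8_T_2 by Havcr2 to 0.889, both without the heaviest cells. Some splits whose interval held 1 also crossed 1, such as Fasl in CD8_T_2 by Havcr2, from 1.27 to 0.575 without the heaviest cells. Apart from the exclusions of cells, the causes were not tested. No paired analysis was possible because each group had 1 library. The alternative that removed doublets was not run, since 3 cells were marked. Depth limits the sparse genes most: Gzmk and Fasl had 175 and 193 UMIs, and CD4_T held 47 cells.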
